A study of Rattus norvegicus with 2 samples.

Results

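The genes described here encode the working parts of the lysosome, the acidic compartment in which cells break down glycans, lipids and proteins. They are 40 genes chosen by name, comprising 22 hydrolases, 3 soluble proteins without enzyme activity, 8 membrane proteins, 6 subunits of the vacuolar proton pump (V-ATPase) and the transcription factor gene Tfeb. Cathepsins, the lysosomal proteases, were left out of this set. Genes were matched by symbol to probe sets that the array annotation gives to a single gene, which found 38 of the 40. Expression of Sgsh, which encodes a sulfatase of heparan sulfate breakdown, and of Npc1, which encodes a cholesterol transporter of the lysosomal membrane, was not analysed here, and both enter the promoter search alone. All 38 matched genes were above the signal floor on both arrays, out of 9956 genes measured on at least 1 array.

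RNA came from hindlimb adductor muscle of male rats of the inbred Lewis strain, with a body weight of 275 g. The stimulated sample was taken from a left hindlimb 24 hours after 100 pricks with a steel needle of 0.14 mm diameter over a square with sides of 10 mm. The control sample came from the right hindlimb, which was not pricked. Each limb was represented by 1 Affymetrix array, how many rats were used is not stated in the labels, and no difference below has a replicate check or a test.

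Values are MAS5 signals, a linear intensity with 1 value per probe set and array that the authors scaled to a common level. A log2 ratio is stimulated over control, after signals under a floor of 19.8 (the median of all signals of non-control probe sets) were raised to it. The error at hand is the probe set SD, the SD of the log2 ratio from 1 probe set, 0.31, taken from pairs of probe sets of 2174 genes. Differences between limbs or between animals are not part of it. The stimulated array had 48.9% and the control array 51.1% of probe sets at or above the floor. The 18 hybridisation spike-ins all gave less signal with the stimulated sample (median log2 ratio -0.38), so directions are relative to the median gene, whose log2 ratio was 0.019 and became 0.39 under scaling to the spike-ins. Muscle fibre markers were bright on both arrays, among them Acta1, skeletal alpha-actin, with signals of 12095 in the stimulated and 16712 in the control limb. In whole muscle, a change in the number of cells of a type and a change in RNA per cell cannot be told apart.

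Lysosomal hydrolases are made in the endoplasmic reticulum, tagged with mannose 6-phosphate and carried to the lysosome by receptors that recognise the tag. The V-ATPase uses ATP to pump protons into the lumen, and the hydrolases work best at the low pH that results. Heavily glycosylated membrane proteins line the inner face of the membrane, and transporters and channels export the products. In mammalian cells many of these genes carry an E-box in the promoter, within the so-called CLEAR element, to which TFEB and its relatives bind when cells need more lysosomes. In muscle, lysosomes clear glycogen and worn organelles within fibres, and phagocytes that enter injured tissue are rich in them.

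Most lysosomal genes were somewhat higher in the stimulated limb and at the probe set that represents each gene none differed by as much as 2-fold. Of the 38 genes, 30 had a log2 ratio above 0, against 52.3% of all measured genes. The median log2 ratio of the 38 was 0.29, beside 0.019 for all genes. A total of 9 genes were at least 1.5-fold higher, where the share over all genes was 6.59%, and 1 gene, Cln3, was at least 1.5-fold lower, where it was 6.94%. None of the 38 was at least 2-fold higher and none at least 2-fold lower, against 1.43% of all genes in each direction. With arrays scaled to the spike-ins and no correction for the median gene, 28.3% of all genes were at least 1.5-fold higher and 1.81% lower, and 5.36% were at least 2-fold higher and 0.441% lower. Of the lysosomal genes, 37 then lay above 0, where the share over all genes was 84.9%. At least 1.5-fold higher were 24 of them, and at least 2-fold higher 7.

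The 9 genes at or beyond 1.5-fold higher were Cd63, Atp6v1b2, Naglu, Npc2, Galc, Fuca1, Atp6v0c, Gla and Gusb, which come from all classes except the regulator. By the measure of the probe set SD, 18 genes were higher by more than 0.31, against 19.5% of all genes, and 1 was lower by more than 0.31, against 18% of all genes. The other 19 lay within the SD, 12 above 0 and 7 below. Among all 9956 genes ordered by log2 ratio, 12 of the 38 lay in the highest 10% and 1 in the lowest 10%. Class medians were 0.49 for the V-ATPase, 0.37 for the soluble non-enzymatic proteins, 0.29 for the hydrolases and 0.079 for the membrane proteins. These medians rest on 6, 3, 21 and 7 genes, and no test between classes was possible with 1 array per group.

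**Figure D1:**
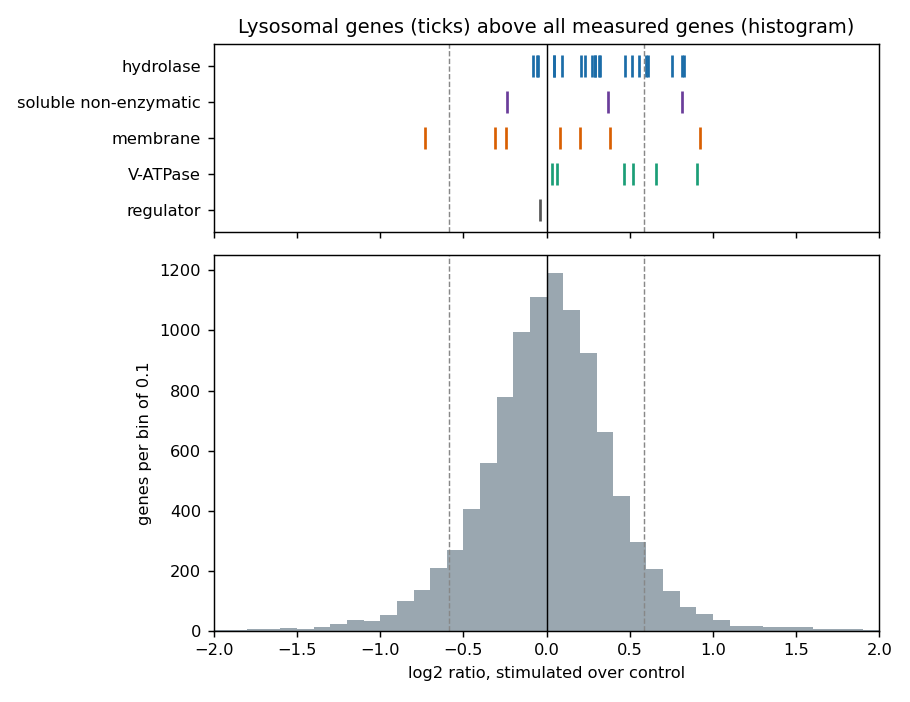
Log2 ratios (stimulated over control) of the 38 lysosomal genes as ticks by class in the upper panel, above a histogram of all 9956 measured genes in bins of 0.1 in the lower panel, which omits 17 genes above 2 and 7 below -2. Dashed lines mark 1.5-fold, and 30 of the 38 ticks lie to the right of 0, against 52.3% of all genes. That count is 37 under spike-in scaling not taken relative to the median gene, against 84.9% of all genes.

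The histogram of all genes centred close to 0, while the ticks of hydrolases and V-ATPase subunits spread mainly over its right side. Signal strength was set beside this, since dim probe sets are noisier. When all genes were split by mean signal into 3 equal bins, the brightest bin held 21 lysosomal genes, with a median log2 ratio of 0.29 against 0.055 for all genes in it. In the middle bin the median was 0.23 for 13 lysosomal genes and 0.023 for all genes. Only 4 lysosomal genes fell in the dimmest bin, where their median was 0.71 against -0.042 for all genes.

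Tfeb encodes the basic helix-loop-helix factor that binds the E-box of lysosomal promoters. It had 208 in the stimulated and 214 in the control limb, a log2 ratio of -0.039 that lay well within the probe set SD. TFEB is regulated largely by phosphorylation and entry into the nucleus, which an RNA array does not measure. Its relative Tfe3 had signals of 111 in the stimulated and 75.2 in the control limb, a log2 ratio of 0.56. Tfec, another relative, had 35.9 against 46.0, a log2 ratio of -0.36, and Mitf had a log2 ratio of 0.090. A list of 17 genes for these factors and for the mTORC1 machinery that controls them had 15 measured members. Their median was 0.090 on the log2 scale and none was beyond 1.5-fold. Besides Tfe3 and Tfec, the members furthest from 0 were Rragc, a Rag GTPase that recruits mTORC1 to lysosomes (log2 ratio 0.49), and Lamtor2, a subunit of the Ragulator anchor (0.35).

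Promoters were searched for the E-box CACGTG, which reads the same on both strands, and for its longer form TCACGTG on either strand, which always contains the shorter one. RefSeq (assembly GRCr8) gave a promoter of 300 bases, 250 before to 50 after the transcription start, for 33 of the 40 genes. Hexa, Asah1, Psap, Ppt1, Arsb, Atp6v1b2 and Atp6v1h had no entry. The E-box was present in 10 of the 33, or 30.3%, against 6.42% of all promoters. The longer form was present in 9 of the 33, or 27.3%, against 3.20% of all promoters. Of the 31 whose expression was measured, 9, or 29.0%, had the E-box, against 9.26% of promoters of measured genes. The longer form was in 8 of the 31, or 25.8%, against 5.47%. The 10 genes with an E-box were Atp6v0d1, Cd63, Cln3, Gaa, Galc, Glb1, Idua, Lamp1, Mcoln1 and Sgsh, of which only Cd63 had the short form alone. A match describes letters in a window and is not evidence of binding.

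The following 5 promoters are shown 5′ to 3′ along the gene with the E-box, and the flanking T or A of the longer form, in capitals. Cd63, Galc and Atp6v0d1 are shown as the genes with an E-box that were most different in the higher direction, Cln3 as the one gene beyond 1.5-fold in the lower direction, and Lamp1 as the gene with the most E-boxes. They lie at chr7:1921894-1922193 (plus strand), chr6:123245510-123245809 (minus strand), chr19:50357199-50357498 (minus strand), chr1:190597880-190598179 (minus strand) and chr16:83075014-83075313 (minus strand).
Cd63: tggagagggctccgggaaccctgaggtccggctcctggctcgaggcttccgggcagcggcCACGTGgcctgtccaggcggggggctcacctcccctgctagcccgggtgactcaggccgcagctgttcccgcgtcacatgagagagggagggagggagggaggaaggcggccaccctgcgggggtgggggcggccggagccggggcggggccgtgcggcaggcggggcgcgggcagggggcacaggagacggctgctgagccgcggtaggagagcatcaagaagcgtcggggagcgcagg
Galc: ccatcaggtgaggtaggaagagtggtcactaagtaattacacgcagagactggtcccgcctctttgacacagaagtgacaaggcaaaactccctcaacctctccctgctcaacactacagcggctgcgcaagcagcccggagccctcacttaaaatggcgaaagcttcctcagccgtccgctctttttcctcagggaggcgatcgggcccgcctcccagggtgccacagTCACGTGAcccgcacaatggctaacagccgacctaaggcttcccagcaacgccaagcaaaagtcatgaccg
Atp6v0d1: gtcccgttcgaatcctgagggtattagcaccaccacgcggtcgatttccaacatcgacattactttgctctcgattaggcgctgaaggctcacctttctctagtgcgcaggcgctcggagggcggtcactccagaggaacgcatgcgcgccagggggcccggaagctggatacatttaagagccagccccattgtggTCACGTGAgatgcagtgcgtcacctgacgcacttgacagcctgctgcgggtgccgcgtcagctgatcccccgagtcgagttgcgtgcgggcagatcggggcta
Cln3: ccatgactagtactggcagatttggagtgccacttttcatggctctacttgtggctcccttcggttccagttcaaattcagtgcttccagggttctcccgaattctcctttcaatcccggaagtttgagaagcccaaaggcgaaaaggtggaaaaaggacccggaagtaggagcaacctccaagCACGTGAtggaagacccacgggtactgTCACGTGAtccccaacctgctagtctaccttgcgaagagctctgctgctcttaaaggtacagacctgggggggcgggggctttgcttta
Lamp1: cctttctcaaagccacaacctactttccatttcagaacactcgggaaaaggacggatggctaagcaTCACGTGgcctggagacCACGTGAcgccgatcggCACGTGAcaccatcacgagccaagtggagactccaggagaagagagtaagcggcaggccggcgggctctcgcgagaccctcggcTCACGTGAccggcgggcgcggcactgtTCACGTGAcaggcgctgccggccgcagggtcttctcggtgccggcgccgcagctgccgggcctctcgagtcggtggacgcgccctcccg

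The E-box of Cd63 begins 190 bases before the start, that of Galc 20 and that of Atp6v0d1 52 bases before it. Cln3 has 2, at 66 and 38 bases before the start. Lamp1 has 5, at 183, 167, 150, 65 and 38 bases before it. Genes with and without an E-box overlapped in their ratios. The 9 measured genes with an E-box had log2 ratios between -0.73 and 0.92 with a median of 0.20. The 22 without one had a median of 0.30. The probe sets of Cln3, whose -0.73 comes from 1 of 3, and those of Gaa pointed both ways. Of the genes with an E-box, 7 of 9 lay above 0 and 2 were at least 1.5-fold higher. Of the genes without one, 17 of 22 lay above 0 and 6 were at least 1.5-fold higher. Over all measured genes the medians were 0.055 for 837 with an E-box and 0.022 for 7512 without, a gene with several promoters counting as having one where any of them holds it. Of the 837, 481 lay above 0 and 51 were at least 1.5-fold higher, and of the 7512, 3961 and 499.

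**Figure D2:**
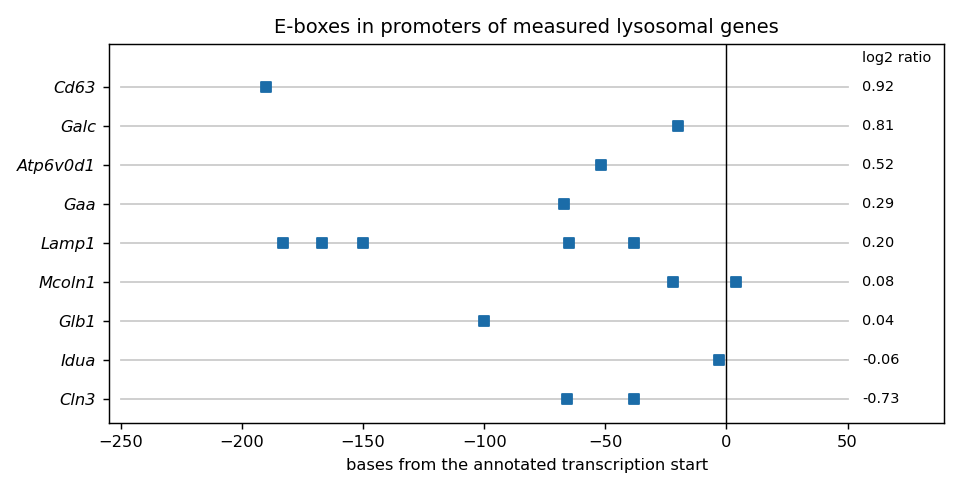
Position of the first base of each CACGTG (squares) in bases from the annotated transcription start, for the 9 measured lysosomal genes that have one, ordered by log2 ratio (stimulated over control), which is printed at the right. The squares of Lamp1, with 5, and Cln3, with 2, sit beside log2 ratios of 0.20 and -0.73, and Cd63 with 1 square beside 0.92. The Cln3 value is from 1 of its 3 probe sets, and the others were at 0.59 and -0.31.

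Hydrolases that act on glycosaminoglycans, the sulfated sugar chains of matrix proteoglycans, ran from -0.058 to 0.82 on the log2 scale of ratios. Naglu, which removes N-acetylglucosamine from heparan sulfate, gave 66.3 in the stimulated limb and 37.5 in the control limb, 1.77-fold higher and the largest ratio of the 21 measured hydrolases. Gusb, the beta-glucuronidase that removes glucuronic acid, had 136 against 89.8 and was 1.51-fold higher. Both differences exceeded the probe set SD, with log2 ratios of 0.82 and 0.60. Ids, the sulfatase that acts on iduronic acid, had 854 in the stimulated and 707 in the control limb, a log2 ratio of 0.27. Idua, the iduronidase that acts after it, had 34.9 against 36.3, a log2 ratio of -0.058. For Arsb, which desulfates dermatan and chondroitin sulfate, the signals were 122 in the stimulated and 115 in the control limb, and its 2 probe sets had log2 ratios of 0.094 and -0.10. Of the enzymes of the heparan sulfate pathway, Naglu and Gusb lay above the SD and Ids and Idua within it. Lying on either side of the SD does not show that 2 genes differ.

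Enzymes of sphingolipid breakdown ran from -0.081 to 0.81 on the log2 scale. Galc, which cleaves galactosylceramide, a lipid of myelin, had 35.01 in the stimulated and 19.9 in the control limb, 1.76-fold higher with a control signal right at the floor. Gla removes terminal alpha-galactose from globotriaosylceramide. It had 52.5 in the stimulated and 34.3 in the control limb, 1.53-fold higher, and another probe set for it had 59.9 and 29.4, a log2 ratio of 1.03. Asah1, the acid ceramidase, had 121 in the stimulated and 84.6 in the control limb, a log2 ratio of 0.51, but its second probe set had 83.8 and 83.1, a log2 ratio of 0.012. Galc and Gla were thus both above 1.5-fold, and the 2 probe sets of Asah1 disagreed by 0.50.

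The remaining sphingolipid enzymes lay within the SD. Neu1, the sialidase, had 73.7 in the stimulated and 62.8 in the control limb, with log2 ratios of 0.23 and 0.14 at its 2 probe sets. Hexa, the alpha subunit of the hexosaminidase that acts on ganglioside, had 323 against 280, a log2 ratio of 0.21. Glb1, the beta-galactosidase, had 164 in the stimulated and 159 in the control limb, a log2 ratio of 0.045, and its E-box lies 100 bases before the start. Smpd1, the acid sphingomyelinase, had 411 against 434 and a log2 ratio of -0.081. Ctsa, the protective protein with which the enzymes Glb1 and Neu1 form a complex, had signals of 656 in the stimulated and 449 in the control limb, a log2 ratio of 0.55, above the SD while Glb1 and Neu1 lay within it. Gm2a, the activator that presents ganglioside to the hexosaminidase, had 418 against 274 and was 1.53-fold higher, while Hexa was 1.15-fold higher.

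Of the enzymes that trim the sugar chains of glycoproteins, Fuca1 stood out. This fucosidase had 374 in the stimulated limb and 222 in the control limb, 1.68-fold higher. Manba, the beta-mannosidase of a late step, had 83.9 against 60.5, a log2 ratio of 0.47, which became 0.13 when the floor was set to the 75th percentile of signals. Man2b1, the alpha-mannosidase, had 132 in the stimulated and 128 in the control limb, a log2 ratio of 0.043. Aga, which cuts the bond between the sugar chain and asparagine, had 155 against 161, a log2 ratio of -0.051. Fuca1 and Manba exceeded the SD and the other 2 did not differ beyond it.

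The last group of hydrolases acts on other substrates, and all 5 of its members lay above 0. Lipa, the acid lipase that releases cholesterol and fatty acids from lipoprotein lipids, had 177 in the stimulated and 121 in the control limb, a log2 ratio of 0.56. Acp2, an acid phosphatase, had 116 against 92.7, and Ppt1, which removes fatty acids from proteins, had 253 against 203, with log2 ratios of 0.32 each. Tpp1, a peptidase that removes tripeptides, had 335 in the stimulated and 275 in the control limb, a log2 ratio of 0.29. These differences were small, and those of Acp2 and Ppt1 barely exceeded the SD.

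Gaa is the acid alpha-glucosidase that degrades glycogen and whose loss causes a muscle disease in humans. It had 341 in the stimulated limb and 279 in the control limb, a log2 ratio of 0.29. Its second probe set had 137 in the stimulated and 179 in the control limb, a log2 ratio of -0.38. The 2 probe sets of this gene pointed opposite ways, and their mean log2 ratio was -0.047.

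**Figure D3:**
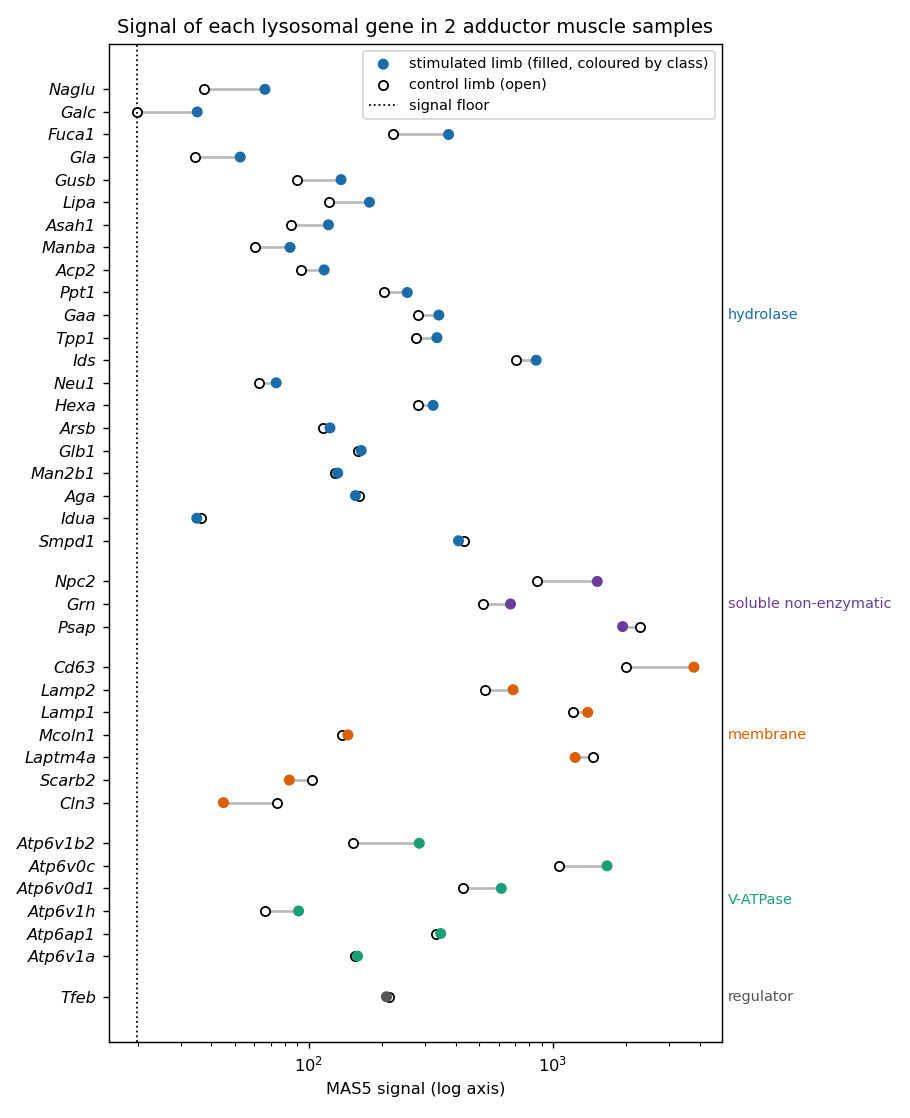
MAS5 signal on a log axis of the 38 measured lysosomal genes in the stimulated limb (filled, coloured by class) and the control limb (open), 1 array each, ordered within each class by log2 ratio. Signals of different genes come from different probes and are not to be ranked against each other, and within a row the filled point lies right of the open one for 30 genes.

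The soluble proteins without enzyme activity went different ways. Npc2, which binds cholesterol in the lumen and passes it to the transporter Npc1, gave 1518 in the stimulated limb and 863 in the control limb, 1.76-fold higher. Grn, progranulin, which is secreted by macrophages among other cells and is cut into granulins in lysosomes, had 670 against 518, a log2 ratio of 0.37. Psap, the precursor of the saposins that help hydrolases reach their lipids, had 1929 in the stimulated and 2279 in the control limb, a log2 ratio of -0.24 within the SD. The saposin precursor and the lipid enzymes Galc and Gla thus lay on opposite sides of 0.

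Membrane proteins ran from -0.73 to 0.92 on the log2 scale, with 4 of 7 above 0. Cd63, a tetraspanin of late endosomes, lysosomes and exosomes, had 3776 in the stimulated and 1990 in the control limb, 1.90-fold higher, the largest ratio of all 38 genes. Lamp2, a major glycoprotein of the membrane with a part in autophagy, had 687 against 529, a log2 ratio of 0.38, and its second probe set had 533 against 398, a log2 ratio of 0.42. Lamp1, its close relative and a common marker of lysosomes, had 1388 in the stimulated and 1206 in the control limb, a log2 ratio of 0.20. The 2 other Lamp1 probe sets were below the floor on both arrays. Lamp2 exceeded the SD at both probe sets and Lamp1 lay within it, which does not show that the 2 genes differ from each other.

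The next 3 membrane proteins were close to 0 or below it. Mcoln1, a calcium-releasing channel that acts upstream of TFEB, had 145 in the stimulated and 137 in the control limb, a log2 ratio of 0.079. Laptm4a, a membrane protein of late endosomes and lysosomes, had 1233 against 1460, a log2 ratio of -0.24. Scarb2, which carries glucocerebrosidase to the lysosome, had 83.3 in the stimulated and 103 in the control limb, a log2 ratio of -0.31, just within the SD.

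Cln3, a membrane protein whose loss causes a childhood lysosomal disease in humans, had 44.8 in the stimulated and 74.4 in the control limb, 1.66-fold lower. The call rests on 1 of its 3 probe sets. The second had signals of 58.6 in the stimulated and 38.9 in the control limb, a log2 ratio of 0.59, and another, whose suffix marks possible cross-hybridisation, had 46.0 and 56.9, a log2 ratio of -0.31. With the median over its probe sets Cln3 was at -0.31 and 0 genes of the 38 were at least 1.5-fold lower.

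All 6 V-ATPase members lay above 0, and 4 exceeded the SD. The pump has a membrane part, V0, through which protons pass and a cytosolic part, V1, that hydrolyses ATP. Atp6v0c, the ring subunit of the membrane part, had 1665 in the stimulated and 1057 in the control limb, 1.58-fold higher. Atp6v0d1, which couples the ring to the stalk, had 615 against 429, a log2 ratio of 0.52, and its promoter is among those printed above. Both of these members, Atp6v0c and Atp6v0d1, thus exceeded the SD.

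In the cytosolic part, Atp6v1b2, the widely expressed B subunit that forms the catalytic hexamer with subunit A, had 284 in the stimulated and 151 in the control limb, 1.87-fold higher, and another probe set for it had 235 against 175, a log2 ratio of 0.42. Atp6v1a, the catalytic A subunit, had 159 in the stimulated and 155 in the control limb, a log2 ratio of 0.031. Its second probe set had 118 and 74.0, a log2 ratio of 0.67, so the 2 probe sets differed by 0.64, more than the SD of 0.44 of such differences over all genes. Whether the A and B subunits differed in ratio therefore depends on the probe set. Atp6v1h, a regulatory subunit of the stalk, had 90.9 in the stimulated and 66.0 in the control limb, a log2 ratio of 0.46, which was 0.25 and thus within the SD under the higher floor at the 75th percentile. Atp6ap1, an accessory subunit, had 347 against 333, a log2 ratio of 0.060.

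**Figure D4:**
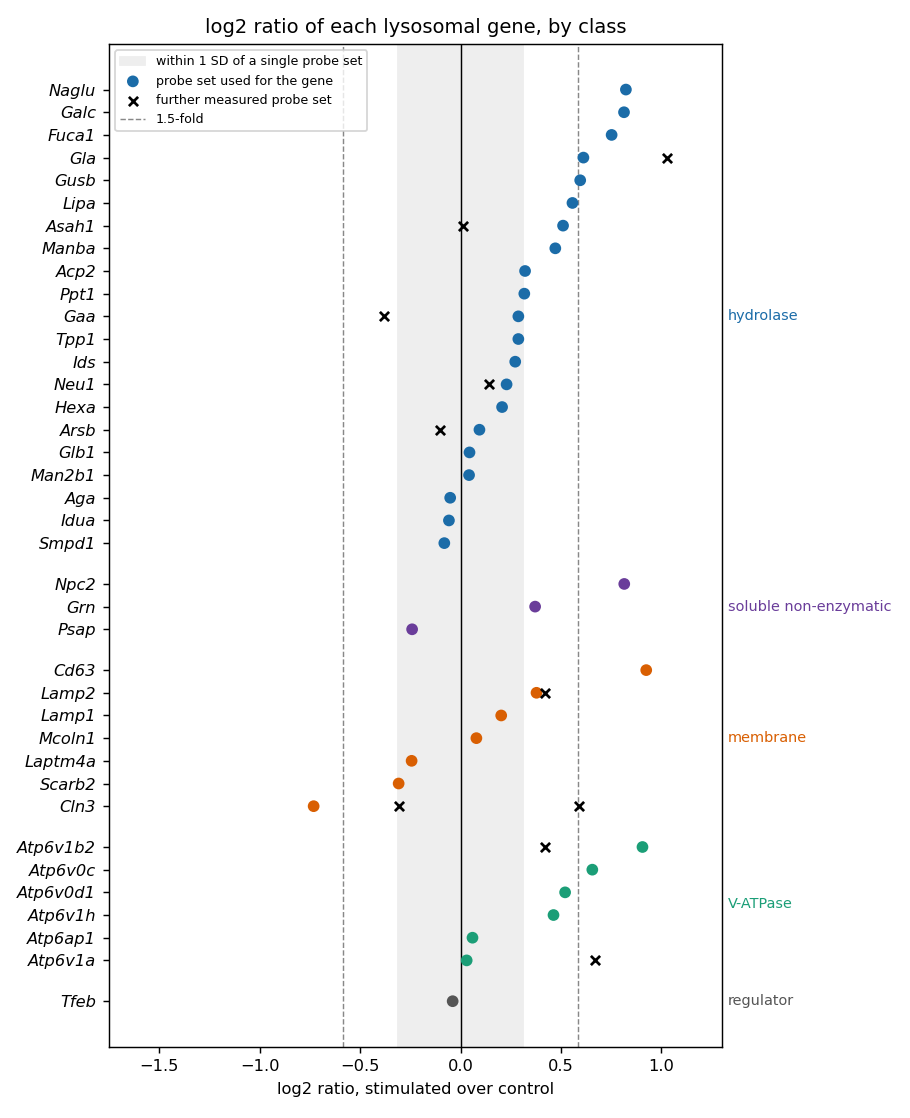
Log2 ratio, stimulated over control, of each lysosomal gene by class (circles), with further measured probe sets of the same gene as crosses, and a grey band of 1 SD of a single probe set (0.31) on either side of 0. Of 9 genes with a further measured probe set, 6 have all crosses on the same side of 0 as the circle, and Cln3, Gaa and Arsb do not.

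Over the 38 genes, 29 rested on 1 measured probe set and 9 had at least 2. In 6 of the 9 (Asah1, Atp6v1a, Atp6v1b2, Gla, Lamp2 and Neu1) every probe set pointed to the higher side. The probe sets of Cln3, Gaa and Arsb pointed both ways. Ordered by log2 ratio, the widest gap between neighbouring genes of the 38 was 0.42, between Cln3 and Scarb2. That gap was under the SD of 0.44 of differences between probe sets of 1 gene. With the median over probe sets, Cln3 and Scarb2 were both at -0.31.

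Further lysosomal genes outside the 40 were set beside them. Of 23 other hydrolases and lumenal proteins, a list that also held the cytosolic enzyme gene Gnpda1, 15 were measured and 13 lay above 0, with a median log2 ratio of 0.55, 5 at least 1.5-fold higher and 1 lower. Lgmn, legumain, an asparagine-specific protease, had 1130 in the stimulated and 549 in the control limb, 2.06-fold higher. Dpp7, a dipeptidyl peptidase, had 346 against 179, 1.93-fold higher. Pla2g15, the lysosomal phospholipase, was 1.53-fold higher, while Acp5, the tartrate-resistant acid phosphatase of osteoclasts and macrophages, had 23.4 against 38.1 and was 1.63-fold lower. These ratios spanned a wider range than those of the hydrolases described above.

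Of 22 other membrane proteins 16 were measured, with 14 above 0 and a median log2 ratio of 0.28. Cd68, a phagocyte glycoprotein related to the LAMP family, was 2.12-fold higher (329 against 155), and Laptm5, which is expressed in blood cells, was 1.72-fold higher. Abca2, a lipid transporter, was at least 1.89-fold higher, with a control signal just under the floor, and Clcn7, the chloride exchanger of the lysosome, was at least 1.66-fold lower. The remaining V-ATPase subunits had a median of 0.27 over 12 measured of 18, with 10 above 0. Atp6ap2, the prorenin receptor and an accessory subunit, was 1.73-fold higher, and Tcirg1, an isoform of subunit a that is abundant in osteoclasts, was 1.57-fold higher. With the median over probe sets, 0 of the 12 were at least 1.5-fold higher. The subunit C gene Atp6v1c1 had a log2 ratio of 0.58 and the ring subunit gene Atp6v0b one of 0.42, while Atp6v0a2, another isoform of subunit a, was at -0.34. Taking all 18 measured V-ATPase genes, 16 lay above 0, 4 were at least 1.5-fold higher and none was 1.5-fold lower.

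Genes that bring hydrolases to the lysosome were close to the median gene. All 17 of that list were measured, with a median log2 ratio of 0.082, none beyond 1.5-fold and 14 within the SD, and that median was -0.014 when taken over probe sets. The mannose 6-phosphate receptor genes M6pr and Igf2r had log2 ratios of 0.15 and 0.35. Vps33a, Vps16 and Vps18, subunits of the tethering complex for fusion with lysosomes, had 0.44, 0.28 and -0.55. Cathepsins ranged more widely, with a median of 0.48 over 10 measured of 12, from Ctsd (log2 ratio 0.93), Ctsb (0.92), Ctsl (0.82) and Ctsz (0.61) down to Ctsk (-0.59).

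**Figure D5:**
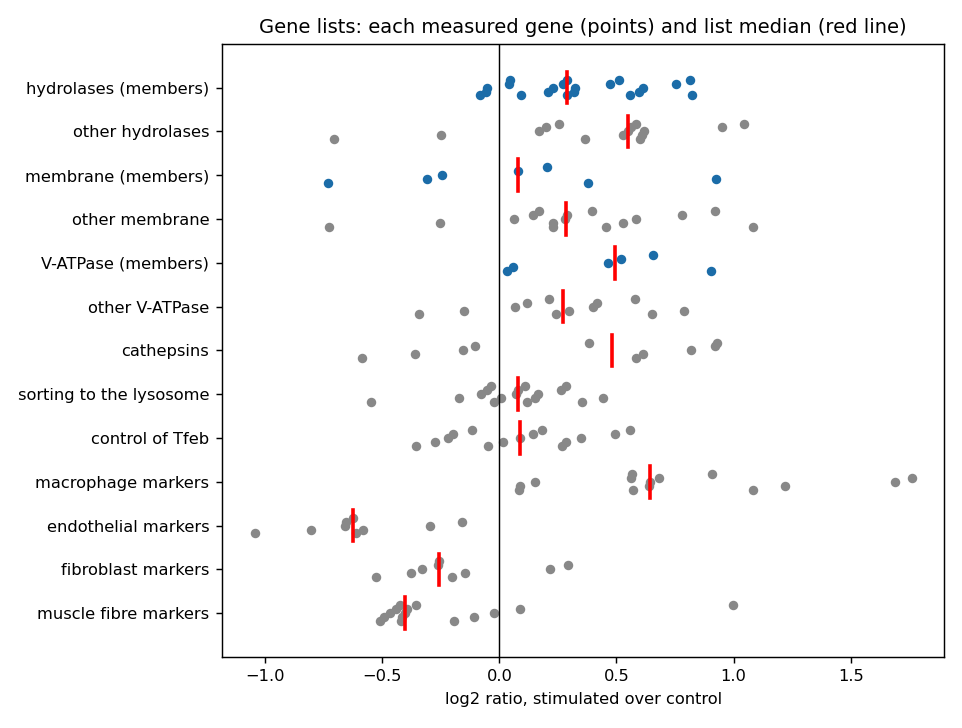
Log2 ratio, stimulated over control, of each measured gene (points) and the list median (red line), with blue points for the lysosomal genes described and grey points for other lists. Red lines stand at 0.29 for hydrolase members, 0.079 for membrane members, 0.49 for V-ATPase members, 0.082 for sorting genes, 0.64 for macrophage markers and -0.40 for muscle fibre markers, the last of which is -0.015 under quantile normalization.

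Markers of other cells also differed between the 2 samples. All 14 measured macrophage markers of 15 lay above 0, with a median log2 ratio of 0.64, and 3 of them lay within the SD. At least 2-fold higher were 4, against 1.43% of all genes, among them Lgals3 (3.39-fold) and Tyrobp (3.22-fold). Signals of the 14 markers summed to 11037 in the stimulated and 6413 in the control limb, and no measured marker was below the floor on either array. Cd68 is also in the list of other membrane proteins. Signals of the 38 lysosomal genes summed to 19204 in the stimulated and 15168 in the control limb. The brightest probe sets weigh most in such a sum, and Cd63 alone gave 3776 and 1990 of it. The part of macrophage number in the lysosomal values was not tested. Of 15 muscle fibre markers 13 lay below 0, but the largest ratio was that of Myh2, which was higher (2010 against 1008, log2 ratio 0.997). The 15 genes had a median of -0.40, with a summed signal of 118384 in the stimulated and 153855 in the control limb. Quantile normalization brought that median to -0.015, and it left the macrophage median at 0.60. All 9 measured endothelial markers lay below 0 with a median of -0.63, but with signals scaled to the spike-ins and no correction for the median gene 2 of the 9 lay above 0 and the median was -0.24. Fibroblast markers had a median of -0.26 over 9 genes, which was 0.13 under spike-in scaling not taken relative to the median gene, and adipocyte markers of -1.62 over 6, or -0.84 over 4 at a floor equal to the 75th percentile. Neutrophil, lymphocyte and mast cell markers had 2, 3 and 4 measured genes, with medians of 0.21, -0.059 and -0.077. A lower floor, the 25th percentile, gave 7 measured genes in each of these lists and medians of 0.37, 0.23 and 0.15. Single markers within them differed more, and in both directions. Cd8a, a T cell coreceptor, was at least 3.76-fold and Tpsab1, a mast cell tryptase, 2.97-fold higher. In the same lists Cd4 was 1.51-fold, Cpa3 1.59-fold and Tpsb2 1.42-fold lower.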

How the data were processed

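Total RNA of the stimulated and the control muscle sample was purified on silica columns and labelled with biotin in 1 amplification cycle, per the labels' protocols. The authors deposited 1 linear signal intensity per probe set and array, made with MAS5 per the submitters' processing notes. For the version and the scaling target, no value is given in the sources used here. The mean after trimming 2% at each end was 76.5 on both arrays. Of 31099 probe sets, 57 controls were left out. The array annotation gave 20826 non-control probe sets 1 gene symbol, of which 20758 matched the RefSeq gene table (GRCr8) by gene identifier, with 0 symbols altered, and 436 probe sets with several symbols were left out.

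Signals below the floor of 19.8 were raised to it before log2 ratios (stimulated over control) were computed. Genes with a signal at or above the floor on either array counted as measured (9956 genes), each represented by the probe set of highest mean log2 signal. A fold is written as "at least" where the lower signal was under the floor. Calls at 1.5-fold and 2-fold carry no test, since each group had 1 array, and the number of arrays limits the precision. The members and lists were chosen with earlier results of these data known. All 40 members are named, and from each other list up to 4 genes with the largest absolute ratio. Ctsa, Gm2a, Mitf, M6pr, Atp6v0a2, Ctsk, Gnpda1 and Acta1 were chosen after their values were seen. The calculations, in Python 3.11.15 with numpy 2.4.6 and pandas 2.3.3, were tested on simulated data. A set of 9 alternatives for floor, scaling and probe set choice was run.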

Additional observations from a re-analysis of the deposited data

How the results depend on the processing

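The median log2 ratio of the lysosomal genes stayed between 0.26 and 0.29 under all alternatives except spike-in scaling, and those of hydrolases, membrane proteins and V-ATPase kept their sign under all of them. Under spike-in scaling not taken relative to the median gene, the medians were 0.67 for all measured members, 0.67 for hydrolases, 0.46 for membrane proteins and 0.88 for the V-ATPase, with 24 members counted as higher at 1.5-fold, 7 as higher at 2-fold and 0 as lower at 1.5-fold, and Tfeb was at 0.34. Taken relative to the median gene, an alternative added after seeing the data, they were 0.28, 0.28, 0.072 and 0.48, with 9, 0 and 1 members. The count of members at least 1.5-fold lower, 1 as reported, came to 0 when the floor was the 75th percentile, 0 when 16 was added to each signal in place of a floor, and 0 when probe sets of a gene were summarised by their median. The count at least 1.5-fold higher was 6 with either of the first 2 of these, where the shares over all genes were 4.66% and 4.80%. The higher floor left 32 members measured, and Galc, Gla, Naglu and Cln3 were among those lost. Manba was then at 0.13 and Atp6v1h at 0.25, both within the probe set SD. Apart from spike-in scaling, Ppt1, Acp2 and Asah1 also came within it under at least 1 alternative. Under the median of probe sets, Atp6v1a was at 0.35, Cln3 at -0.31 and Gaa at -0.047. No paired analysis was possible because each group had 1 array. Dim genes such as Galc, with a control signal at the floor, have the least certain ratios.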
